A study of Homo sapiens with 6 samples.

Results

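The imprinted 14q32 miR cluster was examined in small RNA libraries of HEK293T cells, a human embryonic kidney line, after RPL24 KD. Its members were chosen by name, as every mature miR whose number belongs to the list of miR genes between MEG3 and the far end of the cluster, with any letter or arm. This gave 93 of the 2588 miR names in the count table. The rule itself used names and no read counts, but the members were chosen with earlier results of these data known.

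The RPL24 KD group held 3 libraries from cells transfected with 50 nM of siPOOLs, mixtures of many siRNAs, against RPL24, a protein of the large ribosomal subunit. The negative control (NC) group held 3 libraries from cells given 50 nM of non-targeting siPOOLs. Both groups were harvested 72 h after the siPOOLs. The treatment description also names miR-608 plasmids, given on the day before harvest, but miR-608 had 0 reads in each of the 6 libraries, and it is not clear that these cells received them. The comparison asks which miRs change in level when RPL24 is depleted, here for 1 genomic cluster. Libraries 1 and 2 of each group carry a number, and the third of each is called the unnumbered library, because its column number matched no label. The labels do not say that the libraries came from separate cultures, so p-values measure only the spread between these libraries. The mRNA of RPL24 was not analysed here.

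miRs are short RNAs cut from hairpins within longer transcripts, and each hairpin can give a mature miR from its 5p and its 3p arm. The seed, bases 2 to 8, leads the pairing with target mRNAs. The 14q32 cluster lies in the imprinted DLK1-DIO3 domain, in which the miRs and the long noncoding RNAs MEG3, MEG8 and MEG9 are made from the maternal chromosome, and it is known for high levels in brain, placenta and embryonic tissue.

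Of the 93 members, 92 had a mature sequence in RefSeq (GRCh38.p14) and 91 of these had a copy on chromosome 14, from 52 hairpin genes over 214.4 kb (chr14:100852390-101066801, plus strand). miR-544b was placed only outside chromosome 14, and no sequence was matched to miR-668-3p. The sequences below are those of the 8 members with at least 6 reads, which carry most of what the libraries measured, and of miR-300, which shares a seed with miR-381-3p. They are written 5′ to 3′ with the seed in capitals.
miR-127-3p: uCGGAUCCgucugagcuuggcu
miR-370-3p: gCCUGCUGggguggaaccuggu
miR-379-5p: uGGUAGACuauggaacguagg
miR-411-5p: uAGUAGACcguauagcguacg
miR-323a-3p: cACAUUACacggucgaccucu
miR-543: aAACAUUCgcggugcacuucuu
miR-381-3p: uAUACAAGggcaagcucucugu
miR-300: uAUACAAGggcagacucucucu
miR-134-5p: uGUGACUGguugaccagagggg

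By the GENCODE 29 annotation of GRCh38, miR-127-3p (chr14:100883035-100883056) lay over an exon of RTL1, a retrotransposon-derived gene, on the opposite strand. On the same strand it lay in an intron of AL117190.1, another annotated gene, as did miR-370-3p. miR-370-3p (chr14:100911186-100911207), miR-379-5p (chr14:101022071-101022091), miR-411-5p (chr14:101023340-101023360), miR-323a-3p (chr14:101025782-101025802) and miR-543 (chr14:101032033-101032054) lay in introns of MEG8 on the same strand. miR-381-3p (chr14:101045968-101045989) lay in an intron of MIR381HG, a host transcript, and miR-134-5p (chr14:101054694-101054715) overlapped no annotated gene other than its own hairpin. Among the members, 10 seeds were shared by more than 1 name. Only 1 of these seeds, that of miR-381-3p and miR-300, had more than 2 reads, and all 27 of its reads were counted for miR-381-3p, with 0 for miR-300. The 2 sequences are 3 edits apart.

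The libraries held between 398721 and 611745 counted reads, so 1 read was worth between 1.63 and 2.51 CPM (counts per 1000000 counted reads of the library). The 8 names fixed as markers of HEK293T, such as miR-10a-5p and miR-92a-3p, were all detected and together took from 247684 to 274629 CPM. NC libraries differed more from each other than RPL24 KD libraries did, with a chi-square per degree of freedom of 9.72 to 17.4 between pairs of NC libraries against 2.18 to 2.504 between pairs of RPL24 KD libraries. The pair of NC libraries without NC 2 thus also lay above every pair of RPL24 KD libraries. NC 2, the shallowest library, stood apart in miR-1246, a miR chosen after its values were seen. This miR took 0.639% of the reads of NC 2 and at most 0.0639% of those of any other library. Fold changes and ratios that lean on NC 2 are therefore given with and without it.

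The 14q32 miRs were almost silent in these cells. They took 183 of 3054253 reads, or 0.00599%, and 36 of the 93 had at least 1 read in any library. That is 38.7% of the members, against 46.6% of all 2588 names, and without NC 2 it was 32 members. The other 57 members had 0 reads in all 6 libraries, which with 3 reads as the limit for a count of 0 allows up to 0.982 CPM each over all libraries together, or from 4.90 to 7.52 CPM in a single library. These limits, and the Poisson intervals given later, cover counting error only, since PCR copies were not marked by molecular identifiers. The most abundant member, miR-127-3p, had 35 reads and ranked 416 of all names, with 65.1% of the names with a read below it. Levels this low could not be told apart from a small number of cells with a higher level.

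NC 2 and the unnumbered NC library had the most members detected. Members with at least 1 read numbered 13, 11 and 11 in RPL24 KD 1, 2 and unnumbered. They numbered 11, 20 and 18 in NC 1, 2 and unnumbered. NC 1 thus had as few as 2 of the RPL24 KD libraries, and the higher numbers belonged to NC 2 and the unnumbered NC library. At the depth of the shallowest library the expected numbers were 10.2, 8.57 and 10.8 in the RPL24 KD libraries and 8.47, 20 and 15.6 in the NC libraries, so the same 2 NC libraries were the highest at equal depth. With at least 3 reads as the limit, 2, 3 and 2 members were detected in the RPL24 KD libraries and 1, 6 and 5 in the NC libraries. Over all names, those with a read numbered 808, 828 and 758 in RPL24 KD 1, 2 and unnumbered. In NC 1, 2 and unnumbered they numbered 825, 795 and 856. The unnumbered NC library was thus the highest over all names too. NC 2 was not among the higher ones, but these counts were not brought to equal depth, and NC 2 was the shallowest library. The unnumbered RPL24 KD library, next in depth with 406905 reads against 398721 in NC 2, had fewer names with a read than NC 2.

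Pooled over the cluster, the RPL24 KD libraries were alike and the NC libraries were not. The members together had 20, 20 and 15 reads in RPL24 KD 1, 2 and unnumbered, or 35.8, 32.7 and 36.9 CPM. They had 18, 69 and 41 reads in NC 1, 2 and unnumbered, or 31.9, 173.1 and 79.9 CPM. NC 1 was below every RPL24 KD library, whereas NC 2 and the unnumbered NC library were above all of them, so the groups overlapped. The exact Poisson 95% interval was 18.9 to 50.3 CPM for NC 1, 134.6 to 219.0 CPM for NC 2 and 57.3 to 108.4 CPM for the unnumbered NC library, and these 3 intervals do not overlap. The 3 intervals of the RPL24 KD libraries together ran from 19.97 to 60.8 CPM.

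The mean was 35.1 ± 2.17 CPM (SD, n = 3) in RPL24 KD and 94.9 ± 71.8 CPM (SD, n = 3) in NC, a log2 ratio of means of -1.43. The difference of the means is smaller than the SD of the NC libraries, and no p was computed for the pooled level. With reads and depths summed over each group, the RPL24 KD level was 0.402 of the NC level, with a counting interval of 0.288 to 0.556. Without NC 2 the same ratio was 0.637 (0.433 to 0.936). Without NC 2 and the unnumbered NC library it was 1.09 (0.633 to 1.98), with 55 reads in RPL24 KD and 18 in NC 1. That alternative was chosen after seeing the data, and leaving out the NC libraries above all RPL24 KD libraries had to raise the ratio. Without each library in turn the log2 ratio of means stayed below 0, from -1.85 to -0.67. The higher NC level was seen in 2 of the 3 NC libraries.

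No member reached the level at which single miRs are tested. The filter for low counts kept 360 miRs, the least abundant of which had 51 reads in all, while the highest sum of a member was 35. So 0 of the 93 members passed the filter and 0 could be called DE at an adjusted p under 0.05, where 18 of the 360 tested miRs (5.00%) were called by edgeR's quasi-likelihood test. This count of 0 says that the members were too low to test, not that their levels were the same. When every miR with a read was tested instead, 1205 in number, 16 (1.33%) were called lower after RPL24 KD. Of the 36 members with a read 2 were called, both lower, miR-127-3p and miR-370-3p, and edgeR called 0 of the 1165 miRs with a read without NC 2, where 68 were lower at an unadjusted p under 0.05, 3 of them members. At an unadjusted p under 0.05, 4 of the 36 members were lower, beside 72 (5.98%) of the 1205 miRs. The median log2 fold change of these 36 was -1.29, with 26 below 0 and 10 above 0, beside a median of -0.03 over all 1205. Without NC 2 the median of the 32 members with a read was -0.37, with 17 below 0 and 15 above 0, beside -0.02 over all miRs. Many of these values come from 1 or 2 reads, and a member enters the 36 through any library in which it had a read.

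miR-127-3p and miR-370-3p were the members with the most reads on the MEG3 side of the cluster. miR-127-3p, which is made opposite to RTL1, had 2, 3 and 1 reads in RPL24 KD 1, 2 and unnumbered and 2, 18 and 9 reads in NC 1, 2 and unnumbered. In CPM this was 3.58, 4.90 and 2.46 in RPL24 KD against 3.54, 45.1 and 17.5 in NC. NC 1 lay within the range of the RPL24 KD libraries, and the groups overlapped. Without the filter the log2 fold change was -2.24 (SE 0.556, edgeR adjusted p = 0.00479). Without NC 2 it was -1.31 (adjusted p = 0.673). It was -2.20 without RPL24 KD 1 (adjusted p = 0.0994) and -2.06 without the unnumbered RPL24 KD library (adjusted p = 0.442). The call was thus lost when any 1 of these 3 libraries was left out, and the size moved most without NC 2. Calls over all miRs with a read fell too, from 31 of 1205 with all libraries. They were 0 of 1165 without NC 2, 0 of 1177 without the unnumbered RPL24 KD library and 10 of 1157 without RPL24 KD 1. The lost call is therefore not particular to miR-127-3p. Over all alternatives without the filter the adjusted p ran from 9.632e-05 to 0.7699. The opposite arm, miR-127-5p, had 1 read, in NC 2.

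miR-370-3p had 0, 0 and 1 reads in the RPL24 KD libraries and 1, 10 and 2 reads in the NC libraries, in the same order of libraries. Most of its reads were in NC 2, and NC 1 at 1.77 CPM was below the unnumbered RPL24 KD library at 2.46 CPM. The ratio of RPL24 KD to NC, from 1 and 13 reads, was 0.0720 with a counting interval of 0.00170 to 0.480. Without NC 2, from 1 and 3 reads, it was 0.228 with an interval of 0.00434 to 2.84. Without the filter edgeR gave an adjusted p of 0.0305, which was 0.673 without NC 2. It was between 0.258 and 0.381 without any 1 of the RPL24 KD libraries, and in these fits fewer miRs were called over all miRs as well. The adjusted p ran from 0.00241 to 0.763 over all alternatives without the filter. Its sequence is rich in G and C, 68.2% of its bases, the highest share among the 8 members shown.

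miR-381-3p and miR-411-5p came next among the members with more reads in NC. miR-381-3p had 4, 3 and 1 reads in RPL24 KD and 2, 10 and 7 reads in NC, so that NC 1 was again at the RPL24 KD level. Its log2 fold change without the filter was -1.25 (SE 0.570, edgeR adjusted p = 0.363), and without NC 2 it was -0.63 (adjusted p = 0.673). miR-411-5p had 1, 0 and 1 reads in RPL24 KD and 6, 4 and 3 reads in NC. It was lower in every RPL24 KD library than in every NC library, and its highest NC library was NC 1, unlike the pool. The counting ratio was 0.144 (0.0158 to 0.636) and the edgeR adjusted p without the filter was 0.0927, which is not past the threshold. Among the 699 miRs with at least 6 reads, 12.4% were lower in every RPL24 KD library than in every NC library, and of the 8 members at that limit miR-411-5p was the 1 that was.

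miR-543 had the opposite order. It had 3, 4 and 3 reads in RPL24 KD and 1, 1 and 2 reads in NC, or 5.37, 6.54 and 7.37 CPM against 1.77, 2.51 and 3.90 CPM. Every RPL24 KD library was above every NC library, as for 5.58% of the 699 miRs. The counting ratio of 2.34 had an interval of 0.675 to 10.2, and the log2 fold change of 1.21 (SE 0.784, edgeR adjusted p = 0.687) was not past the threshold. miR-543 was the 1 of the 8 members to be higher in all RPL24 KD libraries.

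The remaining 3 of the 8 did not separate the groups. miR-379-5p is the product of the first hairpin of the large block that starts within an intron of MEG8. It had 1, 1 and 3 reads in RPL24 KD and 0, 1 and 3 reads in NC. miR-134-5p, known from neurons for its control of dendritic spines, had 1, 0 and 0 reads in RPL24 KD and 0, 6 and 0 reads in NC, so 6 of its 7 reads came from NC 2. miR-323a-3p had 0, 2 and 0 reads in RPL24 KD and 1, 3 and 0 reads in NC. For these 3 the edgeR adjusted p without the filter lay between 0.580 and 0.917. In the 4 members miR-127-3p, miR-370-3p, miR-381-3p and miR-134-5p, chosen after their values were seen, NC 2 had 44 of its 69 cluster reads, or 63.8%.

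**Figure D1:**
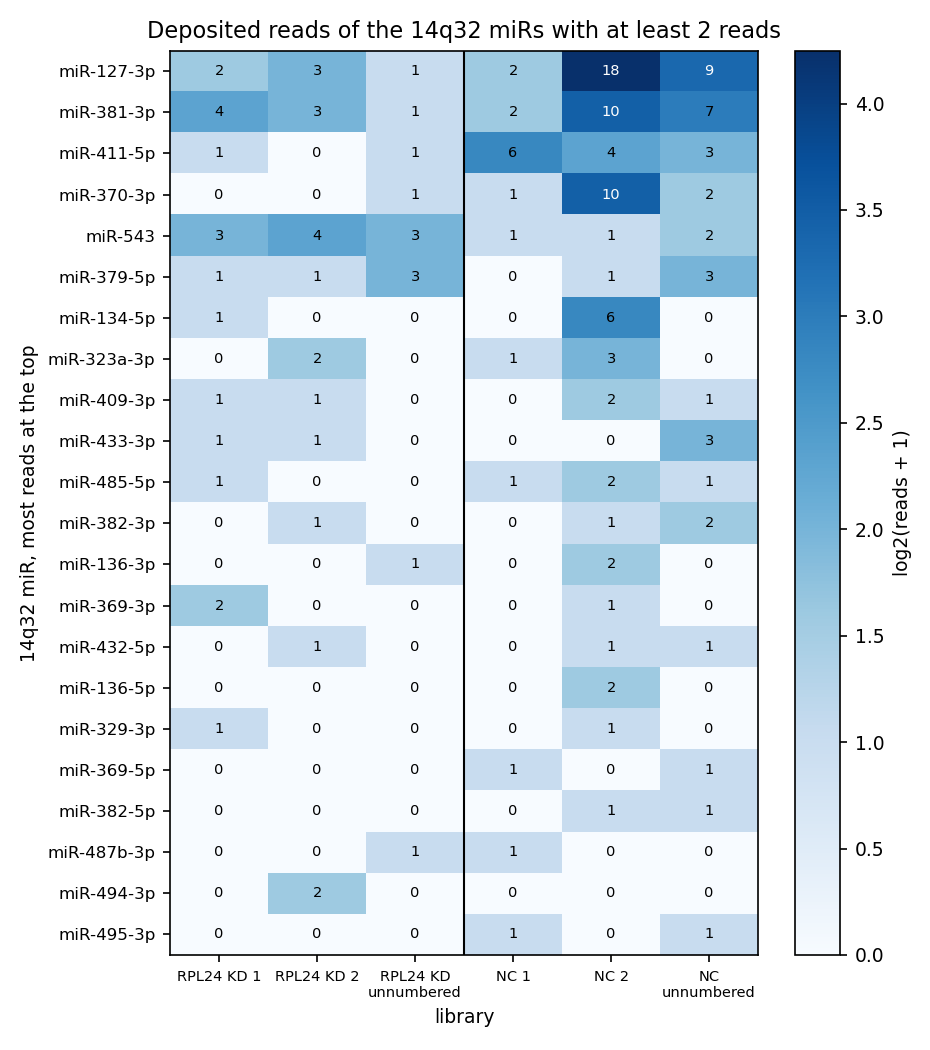
Deposited reads of each 14q32 miR with at least 2 reads (rows) in each library (columns), with the colour on a log2(reads + 1) scale and the RPL24 KD libraries left of the line. miR-127-3p reached 18 reads in NC 2, and miR-411-5p and miR-543 were the rows among the 8 highest whose groups did not overlap.

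The 8 members with at least 6 reads held 127 of the 183 reads, or 69.4%. The other 28 detected members had 1 to 5 reads each. Those with 5 reads were miR-409-3p, miR-433-3p and miR-485-5p, and miR-433-3p, a second miR made opposite to RTL1, had 3 of its 5 in the unnumbered NC library. miR-382-3p had 4 reads. miR-136-3p, miR-369-3p and miR-432-5p had 3 reads each. miR-136-5p, miR-329-3p, miR-369-5p, miR-382-5p, miR-487b-3p, miR-494-3p and miR-495-3p had 2 each, both from NC 2 for miR-136-5p and both from RPL24 KD 2 for miR-494-3p. The 14 members with 1 read were miR-127-5p, miR-154-3p, miR-323a-5p, miR-323b-3p, miR-329-5p, miR-409-5p, miR-431-3p, miR-485-3p, miR-487a-3p, miR-539-3p, miR-654-3p, miR-655-3p, miR-758-3p and miR-889-3p. In all, 12 of the 36 detected members had reads only in NC, with 16 reads between them, and 7 had reads only in RPL24 KD. Without NC 2 these numbers were 8 and 11. The share of such names over all miRs with a read was not counted, so these numbers describe the members only. Reads in a single library were found for 16 members, and reads in all 6 libraries for 3, miR-127-3p, miR-381-3p and miR-543.

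The 3p arms gave most of the reads. The 42 names of 3p arms had 120 reads, the 43 names of 5p arms had 49, and the 8 names without an arm had 14, all from miR-543. Of 40 hairpins with both arms in the table, 8 had reads from both, 15 from the 3p arm alone, 4 from the 5p arm alone and 13 from neither. miR-127 had 35 reads from the 3p arm and 1 from the 5p arm, and miR-381 had 27 and 0. miR-411 went the other way, with 15 reads from the 5p arm and 0 from the 3p arm, as did miR-379 with 9 and 0 and miR-134 with 7 and 0.

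Reads came from both ends of the cluster, which falls into 2 blocks along the chromosome. The block from miR-770 to miR-370, on the side of MEG3 and RTL1, has 18 names, 8 of them with a read and 64 reads in all. The block from miR-379 to miR-656, on the side of MEG8 and MEG9, has 73 names, 28 of them with a read and 119 reads in all. The other 2 names, miR-544b and miR-668-3p, were left out of the blocks and had no read. miR-544b was placed only outside chromosome 14. No sequence was matched to miR-668-3p, although the 5p arm of its hairpin lies in the block from miR-379 to miR-656. In the first block the level was 5.37, 8.17 and 7.37 CPM in the RPL24 KD libraries and 5.31, 85.3 and 31.2 CPM in the NC libraries. In the second it was 30.4, 24.5 and 29.5 CPM in RPL24 KD and 26.5, 87.8 and 48.7 CPM in NC. NC 1 was just below the RPL24 KD range in the first block and within it in the second, and NC 2 was the highest library in both. Without NC 2 the NC mean moved from 40.6 to 18.2 CPM in the first block and from 54.3 to 37.6 CPM in the second, beside RPL24 KD means of 6.97 and 28.2 CPM. The difference between the blocks was not tested.

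A low count can hold reads of a similar miR. miR-323a-3p was 3 edits from miR-323b-3p, which had 1 read, and miR-543 was 4 edits from miR-495-3p, which had 2. miR-134-5p was 5 edits from miR-6728-5p, with 5 reads. The nearest other names lay 7 edits away for miR-127-3p, miR-379-5p and miR-411-5p and 8 edits away for miR-370-3p. None of the 8 members was thus within 2 edits of another name in the table that had a matched sequence. Names without a matched sequence, such as miR-668-3p, were not compared. How reads that match more than 1 name were counted was not given in the sources used here.

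Pooled, other miRs of the same chromosome band were far more abundant and less variable among the NC libraries. The 15 names of 14q32 miRs outside the member list, such as miR-342, from an intron of EVL, and miR-345, had 2028 reads against 183 for the 93 members. Most of these reads were of miR-342-3p and miR-345-5p, and 6 of the 15 names had no read. Pooled, they had 623, 636 and 595 CPM in RPL24 KD and 674, 760 and 711 CPM in NC. miR-345-5p had 107, 103 and 82 reads in RPL24 KD and 132, 127 and 138 in NC (log2 fold change -0.49, SE 0.142, edgeR adjusted p = 0.0569), and miR-342-3p had a log2 fold change of 0.02 (SE 0.115, edgeR adjusted p = 0.967). Neither was past the threshold. Names from other imprinted loci, 9 in all, had 1994 reads, mostly of miR-296-3p, with 8 names detected. The chromosome 19 cluster, the other large imprinted group of miRs in primates, which is known from placenta, had 1 read over 56 names. The neighbouring miR-371 to miR-373 had 5 reads over 8 names.

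Lists of miRs known from other cell types were set beside the pooled reads. Of the 5 names fixed as neuron markers, all had reads, and miR-124-3p had 0, 1 and 0 reads in RPL24 KD and 1, 8 and 6 reads in NC. The whole neuron list, which is mostly miR-128-3p and miR-9-5p, did not follow, with 26200 to 27015 CPM in RPL24 KD and 23148 to 26252 CPM in NC. Muscle markers ran from 239.9 to 268.1 CPM in RPL24 KD and from 331.2 to 371.6 CPM in NC, highest in NC 1, nearly all from miR-1-3p, with miR-206 and miR-208a-3p at 0. Placenta and pluripotent cell markers had at most 1 read in any library, blood markers at most 4 and the liver marker miR-122-5p at most 2. Chosen after their values were seen, miR-219a-2-3p had 1, 2 and 1 reads in RPL24 KD and 0, 10 and 6 reads in NC, and miR-143-3p had 11, 15 and 14 reads in RPL24 KD and 5, 50 and 18 reads in NC. NC 2 was the highest library for miR-124-3p, miR-219a-2-3p and miR-143-3p. The unnumbered NC library was raised in the first 2 of these, but for miR-143-3p it stood at 35.1 CPM beside 34.4 CPM in the unnumbered RPL24 KD library. How many other miRs show this order was not counted. The part of these miRs in the pooled result was not tested.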

How the data were processed

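Small RNA libraries of HEK293T cells, 3 RPL24 KD and 3 NC, were prepared with the NEBNext kit. The authors checked reads with FastQC, trimmed them with Flexbar, aligned them to miRBase with miRExpress and deposited raw read counts per mature miR, without normalization. Groups were taken from the labels. The members and the lists of other miRs were chosen with earlier results of these data known.

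Counts were divided by the library total (398721 to 611745) to give CPM. Members were described by reads per library, with exact Poisson intervals and, for ratios, exact conditional binomial intervals at 95%. miRs were tested with edgeR 4.0.16 (quasi-likelihood test, TMM, filterByExpr with a minimum count of 10, Benjamini-Hochberg adjustment over all tested miRs) in R 4.3.3, without a replicate block. DESeq2 1.42.0 was an alternative. The code was tested on simulated data. Named members were all with at least 6 reads in all libraries together. Sequences and positions came from RefSeq (GRCh38.p14), and overlapping genes from GENCODE 29.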

Additional observations from a re-analysis of the deposited data

How the results depend on the processing

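No member passed the filter with all libraries, with a minimum count of 5 or without any 1 library. With none past the filter, 0 calls were fixed in advance under the other scalings, robust edgeR and DESeq2 on the tested miRs. The replicate block after the filter also called 0 members. Every alternative with the replicate block used only the numbered libraries, 1 and 2 of each group, and left out the unnumbered ones. Testing every miR with a read called 2 members, among 31 calls over all 1205 miRs. It called 2 members also with RLE, total counts and robust edgeR, among 30, 32 and 33 calls over all 1205 miRs. Without each library in turn it called from 0 to 2 members, and from 0 to 27 of all miRs with a read. Over all miRs, edgeR called 0 of 1165 without NC 2 and 0 of 1177 without the unnumbered RPL24 KD library. With the replicate block it called 0 members and 0 of all 1119 miRs. In that fit 3 of the 29 members tested were lower at an unadjusted p under 0.05, beside 35 of the 1119 miRs. DESeq2 with its defaults gave no adjusted p for any of the 36 members. By its test 2 of them were lower at an unadjusted p under 0.05, beside 24 of the 1205 miRs. The pooled log2 ratio of -1.43 ran from -1.85 to -0.67 without each library in turn, was -0.67 without NC 2, and was 0.14 without NC 2 and the unnumbered NC library, an alternative chosen after seeing the data. It was -0.79 without miR-127-3p, miR-370-3p, miR-381-3p and miR-134-5p, also chosen after seeing the data, and -1.12 with the replicate block. The 36 members detected became 9 with at least 3 reads in a library, and 32 to 35 without each library.

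Of 80 values of the 8 named members under alternatives 67 kept their direction and side of the threshold, 9 lost the call and 4 reversed. Without each library in turn, the log2 fold change ran from -0.52 to 1.45 for miR-379-5p, from -4.09 to 1.91 for miR-134-5p and from -3.51 to 0.42 for miR-323a-3p. That of miR-379-5p was -0.52 without the unnumbered RPL24 KD library and -0.36 without NC 1. Without NC 2 that of miR-134-5p was 1.91 and that of miR-323a-3p 0.42. The 18 DE miRs over all tested miRs were 28 with total counts, 31 with no filter, 34 with robust edgeR, 52 with the replicate block, and 4 to 29 without each library. The causes were not tested. NC 2 and the unnumbered NC library held 110 of the 128 NC member reads. Same-numbered libraries deviated with a correlation of -0.02 over 360 miRs, so the numbers were not taken to pair the libraries. With 1 to 35 reads a member, single reads move most of these values.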
